A study of Mus musculus with 20 samples.

Results

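The Hox clusters and the Cdx genes, 42 of the 23432 genes listed in every RNA count file, were followed through mouse skin development in {delta}Np63 Het and KO genotypes. The members were all gene symbols made of Hox, a cluster letter from a to d and a paralogue number from 1 to 13, together with Cdx1, Cdx2 and Cdx4. They comprised 11 HoxA, 10 HoxB, 9 HoxC and 9 HoxD genes, or 39 Hox genes, and 3 Cdx genes. The clusters lay on chromosome 6 (HoxA, 105.5 kb from 52155367 to 52260880), chromosome 11 (HoxB, 173.9 kb from 96194316 to 96368254), chromosome 15 (HoxC, 115.7 kb from 102921131 to 103036856) and chromosome 2 (HoxD, 96.9 kb from 74668225 to 74765142) of GRCm38.p6.

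Each of 4 groups held 3 RNA libraries. KO epidermis at embryonic day 13 carried the {delta}Np63 -GFP KI-KO genotype. Het epidermis at day 13, Het epidermis at day 9 (replicates 1, 2 and 4) and Het dermis at day 13 all carried {delta}Np63 -GFP KI-Het, so that the GFP knock-in allele was present in every group and no wild-type tissue was compared. Cells came from dissected back skin and were sorted by the GFP reporter of the knock-in allele (epidermis) or by surface CD140a (dermis). Epidermal libraries were depleted of ribosomal RNA and dermal libraries were selected with oligo(dT), so tissue and library preparation cannot be told apart. The labels do not state that replicates were separate embryos or litters, and p-values therefore measure only the spread between these samples, which may be technical.

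Hox proteins are homeodomain transcription factors that give cells along the head-to-tail axis their regional identity. Within a cluster, genes with low paralogue numbers are switched on early and reach far forward, while genes with high numbers are switched on later and stay in the tail end, the trunk and the limbs. Cdx1, Cdx2 and Cdx4 encode related homeodomain factors of the tail end of the embryo, where Wnt, FGF and retinoic acid signals maintain them and where they act upstream of trunk Hox genes. In skin, dermal fibroblasts keep a Hox pattern that records their body site, and p63, the product of Trp63, is the transcription factor required to build a stratified epidermis.

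Promoter windows show what regulatory letters stand near some of the members. RefSeq windows (250 bases before to 50 bases after a transcription start, GRCm38.p6) were held for 24 of the 42 members, 26 windows in all, and both strands were searched. The CDX element TTTATG was in 5 of the 26 windows (Hoxa7, Hoxb8, Hoxd3, Hoxd4 and 1 of the 2 windows of Hoxd11), against 11.9% of all 32851 windows of that length. The HOX-PBX element TGATNNAT was in 4 of the 26 (Hoxa2, Hoxb1, Hoxb8 and the other window of Hoxd11), against 8.85% of all. No member window held the retinoic acid response element of the DR5 type, AGGTCA and its direct repeat after 5 bases, which was in 0.00913% of all windows, and the p53-family double half-site was in those of Hoxa9 and Cdx4, against 7.22% of all. No matches of different motifs overlapped. Of the members called in a comparison below, Hoxa7, Hoxb8 and Hoxd3 had CDX elements in their windows. The windows of Cdx2, Hoxa3, Hoxa5, Hoxa6 and Hoxd8, also called, held none of these motifs. Such matches describe letters only. The window of Hoxa7 (chr6:52218524-52218823, minus strand) is shown because Hoxa7 had the smallest p-value of any member between KO and Het epidermis, that of Hoxd4 (chr2:74721728-74722027, plus strand) because Hoxd4 differed in the opposite direction, and that of Hoxb1 (chr11:96365508-96365807, plus strand) because Hoxb1 stood apart between days 9 and 13 and its window holds the HOX-PBX letters. Capitals mark the 2 CDX elements in Hoxa7, the 2 CDX elements in Hoxd4 and the HOX-PBX element in Hoxb1, each read 5′ to 3′ along the gene.
Hoxa7: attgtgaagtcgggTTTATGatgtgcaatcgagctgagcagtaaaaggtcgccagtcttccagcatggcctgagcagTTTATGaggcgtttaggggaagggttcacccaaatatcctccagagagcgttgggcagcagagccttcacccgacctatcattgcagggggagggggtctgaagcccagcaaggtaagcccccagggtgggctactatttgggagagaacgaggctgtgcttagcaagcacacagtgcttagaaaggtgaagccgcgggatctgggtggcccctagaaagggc
Hoxd4: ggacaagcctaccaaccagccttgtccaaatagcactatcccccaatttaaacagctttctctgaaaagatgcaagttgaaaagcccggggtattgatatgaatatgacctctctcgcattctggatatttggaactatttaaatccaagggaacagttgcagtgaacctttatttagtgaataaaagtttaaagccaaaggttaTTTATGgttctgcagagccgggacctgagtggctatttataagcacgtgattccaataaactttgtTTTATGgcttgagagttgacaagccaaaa
Hoxb1: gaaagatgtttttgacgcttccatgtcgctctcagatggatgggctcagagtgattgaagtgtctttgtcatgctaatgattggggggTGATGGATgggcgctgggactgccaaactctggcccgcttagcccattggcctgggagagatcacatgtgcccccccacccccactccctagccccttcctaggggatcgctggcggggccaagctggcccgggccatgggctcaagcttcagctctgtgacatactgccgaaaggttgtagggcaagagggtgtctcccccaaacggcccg

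Gene counts per library ranged from 3373819 to 7777808 in the 9 epidermal libraries and from 16931664 to 33386872 in the 3 dermal libraries. Levels are given in CPM, the counts of a gene per 1000000 counts of its library's total after TMM scaling over all 12 libraries. CPM are not divided by transcript length, so each gene is compared between groups and not with other genes. A library with no count of a gene allows up to 3 counts, or 0.3705 to 0.776 CPM in epidermal and 0.1075 to 0.2587 CPM in dermal libraries, counting error only. Trp63 stood at 23.0, 25.0 and 20.4 CPM in KO libraries 1 to 3, against 520, 611 and 454 CPM in E13 Het epidermis, with 279, 218 and 121 CPM in E9 Het epidermis and at most 2.15 CPM in dermis. The KO libraries kept Trp63 reads and lay below every Het epidermal library. Summed over 15 epidermal markers, KO epidermis had 3560 to 4635 CPM, E13 Het epidermis 4759 to 6236 CPM, E9 Het epidermis 2804 to 2930 CPM and dermis 14.4 to 16.8 CPM. Pdgfra, which encodes CD140a, and the other dermal mesenchyme markers (14 genes in all) summed to 35300 to 47710 CPM in dermis.

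Some libraries stood apart in the Hox genes themselves. In E9 Het replicate 4 the 39 Hox genes summed to 223 CPM, against 906 and 744 CPM in replicates 1 and 2, and 17 of the 39 had no count, against 5 and 3. It was the lowest of the 3 for 28 Hox genes and the highest for 5, namely Hoxa2, Hoxb1, Hoxb2, Hoxd1 and Hoxd13. Paralogue groups 9 to 13 took 8.52% of its Hox counts (exact 95% interval 6.84 to 10.5%), against 31.6% (30.4 to 32.7%) in replicate 1 and 24.0% (22.7 to 25.3%) in replicate 2. Results against E9 are therefore also given without replicate 4. E13 Het replicate 1 had 16 of the 39 at 0 and the fewest genes detected of all libraries (10765), and KO replicate 3 had 12 at 0 and 11275 genes detected. In dermis replicate 2, groups 1 to 4 took 14.4% of the Hox counts (13.4 to 15.4%), against 30.9% (29.9 to 31.8%) and 30.8% (30.0 to 31.6%) in replicates 1 and 3.

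The clusters stood in different proportions in the 4 groups. HoxA genes summed to 120.2, 126 and 171 CPM in KO epidermis, against 293, 310 and 243 CPM in E13 Het epidermis, 180.0, 135 and 47.9 CPM in E9 Het epidermis and 48.3, 64.8 and 44.2 CPM in dermis. All E13 Het epidermal sums of HoxA lay above all sums of the other groups. Hoxa7 alone averaged 26.6 CPM in KO and 124 CPM in E13 Het epidermis. HoxD genes summed to 50.0, 87.3 and 70.1 CPM in KO epidermis, against 17.2, 26.4 and 13.1 CPM in E13 Het epidermis, 171, 93.4 and 11.9 CPM in E9 Het epidermis and 103, 61.9 and 78.0 CPM in dermis. The KO sums of HoxD did not overlap with those of E13 Het epidermis and overlapped with those of dermis. HoxB averaged 166 ± 34.8 CPM in KO, 133 ± 4.25 in E13 Het, 124 ± 49.7 in E9 Het epidermis and 72.6 ± 21.4 in dermis (SD, n = 3 each), and HoxC averaged 188 ± 42.4, 205 ± 44.3, 287 ± 166 and 255 ± 46.8 CPM in the same order. KO and E13 Het epidermis overlapped in their HoxC sums. These sums are descriptions and were not tested.

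**Figure D1:**
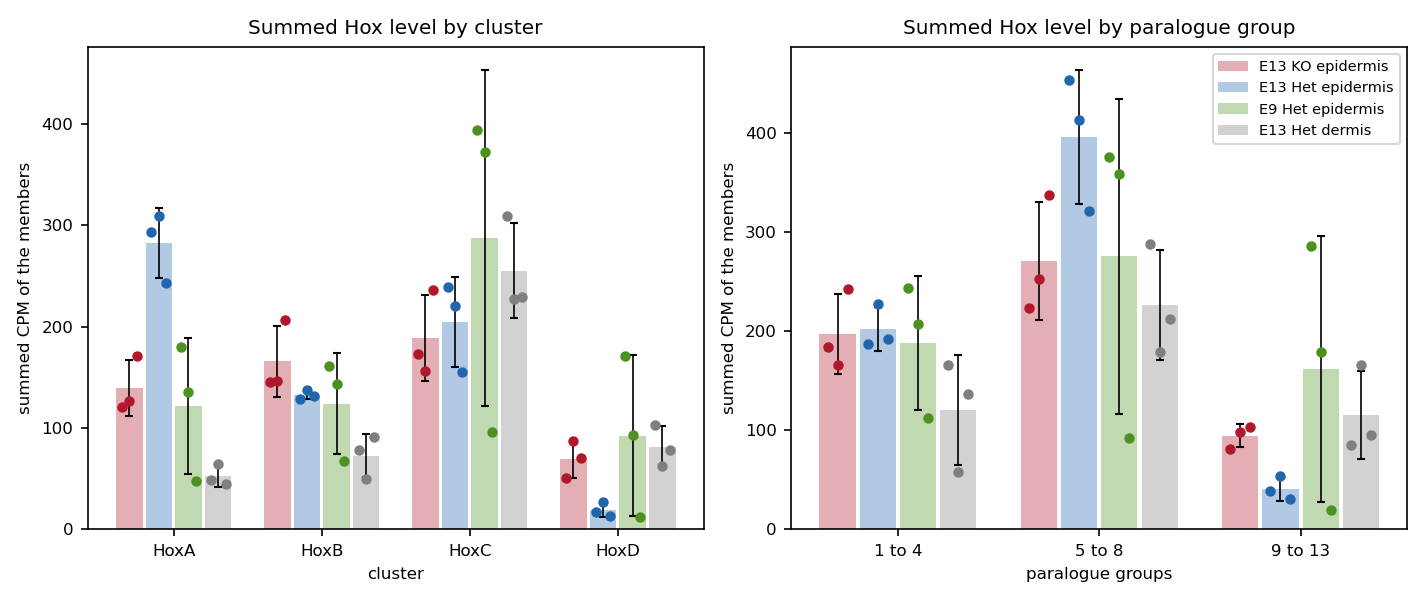
Summed CPM of the Hox genes of each cluster (left) and of paralogue groups 1 to 4, 5 to 8 and 9 to 13 (right) in KO epidermis, E13 Het epidermis, E9 Het epidermis and dermis, with points for libraries and bars for mean ± SD (n = 3). The HoxA sum is highest in E13 Het epidermis, at 282 ± 34.5 CPM, the HoxD sum is lowest there, at 18.9 ± 6.83 CPM, and 1 E9 library lies far below the other 2 in every set but groups 1 to 4, where it is also the lowest.

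By paralogue number, groups 1 to 4 averaged 197 ± 40.1 CPM in KO epidermis, 202 ± 22.0 CPM in E13 Het epidermis, 188 ± 68.0 CPM in E9 Het epidermis and 120.1 ± 55.8 CPM in dermis. Groups 5 to 8 averaged 271 ± 59.4, 396 ± 67.7, 275 ± 159 and 226 ± 55.6 CPM in that order of groups. Groups 9 to 13 summed to 81.1, 98.0 and 104 CPM in KO epidermis, against 38.0, 53.4 and 30.3 CPM in E13 Het epidermis, 286, 179 and 19.0 CPM in E9 Het epidermis and 84.8, 166 and 94.6 CPM in dermis. The group 9 to 13 sums of KO and E13 Het epidermis did not overlap. Paralogue group 7, which held only Hoxa7 and Hoxb7, summed to 37.0 to 47.5 CPM in KO and 111 to 156 CPM in E13 Het epidermis, with 6.65 to 46.4 CPM in E9 Het epidermis and 4.57 to 8.90 CPM in dermis. Within group 7, Hoxa7 averaged 26.6 CPM in KO and 124 CPM in E13 Het epidermis. Hoxb7 was not lower in KO, at 15.6 ± 9.55 against 12.1 ± 4.56 CPM (log2 0.36 ± 0.80), with overlap. Group 10 summed to 17.9 to 27.9 CPM in KO and 0 to 13.2 CPM in E13 Het epidermis, with 1.83 to 135 CPM in E9 Het epidermis and 41.4 to 83.6 CPM in dermis. Groups 11, 12 and 13 were the sparsest, with at most 8.59, 3.63 and 14.2 CPM in any E13 epidermal library. Of their 9 genes, Hoxa11, Hoxa13, Hoxb13, Hoxc11, Hoxc12 and Hoxd12 were too low to be tested in any comparison.

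**Figure D2:**
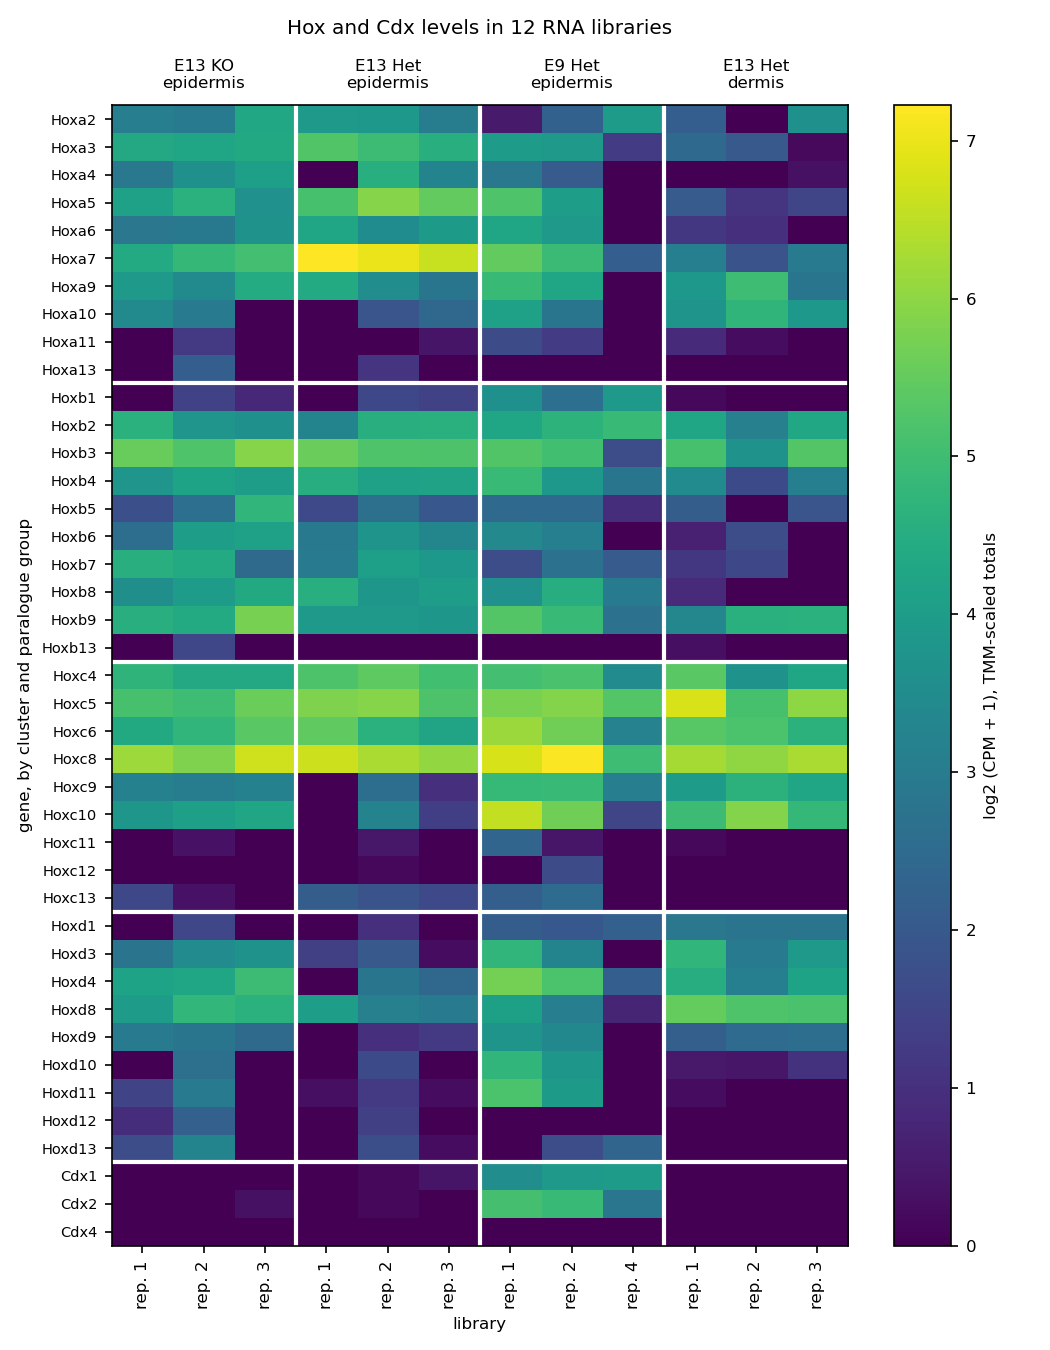
Heat map of log2 (CPM + 1) for the members but 1 (rows, by cluster and paralogue group) in the 12 libraries (columns, by group). Cdx1 and Cdx2 are bright only in the E9 columns, Hoxa7 is brightest in E13 Het epidermis, and replicate 4 of E9 is dark through most of the HoxA and HoxD rows.

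The first comparison asked which members differed between the KO and Het genotypes at day 13. No member of the 35 tested passed an adjusted p of 0.05 between KO and E13 Het epidermis (edgeR quasi-likelihood test, Benjamini-Hochberg over 13052 genes), where 2.20% of all genes passed. At an unadjusted p under 0.05 there were 2 members, Hoxa7 and Hoxd4, against 11.4% of all genes. DESeq2 and limma voom with quality weights each called 1 member, Hoxa7. The libraries of KO and Het did not overlap for 11 members, 6 higher and 5 lower in KO, where 20.0% of all genes did not overlap, 10.6% higher and 9.36% lower. The median log2 fold change was 0.23 over the members tested and 0.03 over all genes.

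Hoxa7, which helps to pattern the trunk, had 20.2, 27.3 and 32.3 CPM in KO epidermis, against 149, 127 and 97.5 CPM in E13 Het epidermis. Every KO library was below every E13 Het library, with a log2 fold change of -2.24 ± 0.66 (SE) and an edgeR adjusted p of 0.16. DESeq2 gave an adjusted p of 0.0491 and voom 0.00189, in a range of 0.00189 to 0.518 over 11 alternatives, with log2 fold changes from -2.27 to -2.18. Hoxa5, which patterns lung and neck vertebrae, had 16.7, 23.5 and 11.6 CPM in KO epidermis and 34.1, 59.0 and 43.8 CPM in E13 Het epidermis (log2 -1.41 ± 1.06, edgeR adjusted p 0.727). Hoxa3, a gene of the pharyngeal arches, had 19.7, 18.1 and 19.9 CPM in KO and 37.8, 29.8 and 22.5 CPM in Het (log2 -0.65 ± 0.63, edgeR adjusted p 0.817). Neither Hoxa5 nor Hoxa3 overlapped between the groups, but Hoxa3 spans Hoxa4, Hoxa5 and Hoxa6 in the annotation, so reads of these 4 genes may be shared or lost. Hoxc4 averaged 21.4 ± 3.10 CPM in KO and 36.7 ± 5.02 CPM in Het (log2 -0.79 ± 0.44, edgeR adjusted p 0.56). Hoxc13, which controls hair keratin genes, averaged 0.746 ± 1.07 CPM in KO and 2.68 ± 0.68 CPM in Het and was the remaining member without overlap on the low side.

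The members on the high side came mostly from HoxD and from paralogue groups 9 and 10. Hoxd4, which marks the hindbrain boundary and neck, had 17.3, 18.3 and 30.0 CPM in KO epidermis, against 0, 6.05 and 4.43 CPM in E13 Het epidermis (log2 2.61 ± 1.08, edgeR adjusted p 0.37). Its KO libraries all lay above its Het libraries. Hoxd3, a gene of the first neck vertebrae, had 5.91, 10.2 and 11.9 CPM in KO and 1.58, 3.09 and 0.17 CPM in Het (log2 2.50 ± 1.47), and since the Hoxd3 and Hoxd4 gene models overlap, these are not independent readings. Hoxd9, a limb and lumbar gene, had 6.97, 6.04 and 4.66 CPM in KO and 0, 0.988 and 1.36 CPM in Het (log2 2.85 ± 1.72), with no overlap. The same separation was seen for 3 genes of groups 9 and 10 outside HoxD. Hoxc9, which sets thoracic motor neuron identity, had 8.03, 7.12 and 8.02 CPM in KO and 0, 5.06 and 1.02 CPM in Het (log2 1.88 ± 1.08). Its lowest KO library stood above its highest Het library. Hoxc10, a lumbar gene, had 13.2, 15.8 and 17.9 CPM in KO and 0, 8.40 and 1.53 CPM in Het (log2 2.17 ± 1.34). Hoxb9, a gene of rib patterning, had 22.0, 20.4 and 52.3 CPM in KO and 14.0, 13.8 and 13.3 CPM in Het (log2 1.19 ± 0.61). The edgeR adjusted p of Hoxd3, Hoxd9, Hoxc9, Hoxc10 and Hoxb9 lay between 0.496 and 0.634.

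All 8 tested HoxD genes had a positive log2 fold change in KO against E13 Het epidermis, from 0.84 to 2.85 with a median of 2.14, and 6 of the 9 tested HoxA genes had a negative one. Without KO replicate 2, 6 of the 8 HoxD genes were positive with a median of 0.78, and without E13 Het replicate 2 all 8 were positive with a median of 3.56. In KO epidermis Hoxd10, Hoxd11 and Hoxd13 were highest in replicate 2. Hoxd13, a gene of the digits, had 2.27, 8.59 and 0 CPM in KO and 0, 2.35 and 0.17 CPM in Het. One refit left out the library with the fewest genes in each compared group, KO replicate 3 and E13 Het replicate 1. There Hoxd4 had a log2 fold change of 1.72 (edgeR adjusted p 0.721) and Hoxa7 of -2.27 (edgeR adjusted p 0.518). In paralogue groups 9 to 13, 9 of the 10 tested genes were positive and Hoxc13 was negative (median 1.58). That median was 0.84 without KO replicate 2, with 8 of 10 positive, and 3.38 without E13 Het replicate 2, with 9 of 10 positive. The 12 genes of groups 1 to 4 split into 5 positive and 7 negative, and the 11 genes of groups 5 to 8 into 5 and 6. Hoxc8, a thoracic gene, was close to level, with 76.5 ± 24.1 CPM in KO and 81.3 ± 18.1 CPM in Het.

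Markers of other cells were read in the same libraries. The 14 dermal mesenchyme markers summed to 1779, 2965 and 1941 CPM in KO epidermis, against 1103, 2214 and 957 CPM in E13 Het epidermis, with 10 to 14 detected in KO and 11 to 14 in Het, and overlapped between the groups. In KO libraries this sum was 4.36, 7.27 and 4.76% of its dermal mean. The HoxD sum was 61.8, 108 and 86.7% of its dermal mean in the same libraries. In E13 Het epidermis the dermal markers stood at 2.71, 5.43 and 2.35% and HoxD at 21.2, 32.7 and 16.2% of the dermal means. Dermal libraries were prepared differently, and the part of dermal cells in the HoxD sums was not tested. The 11 neural markers summed to 144 to 281 CPM in KO and 61.7 to 155 CPM in E13 Het epidermis, with a narrow overlap. Of 9 neural markers tested, 1 was called higher in KO, and their median log2 fold change was 1.12, against 0.03 over all genes. Of 13 dermal mesenchyme markers tested, 0 were called. The part of these markers in the Hox differences was not tested. In these bulk libraries, fewer cells of a type and less RNA per cell cannot be told apart.

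**Figure D3:**
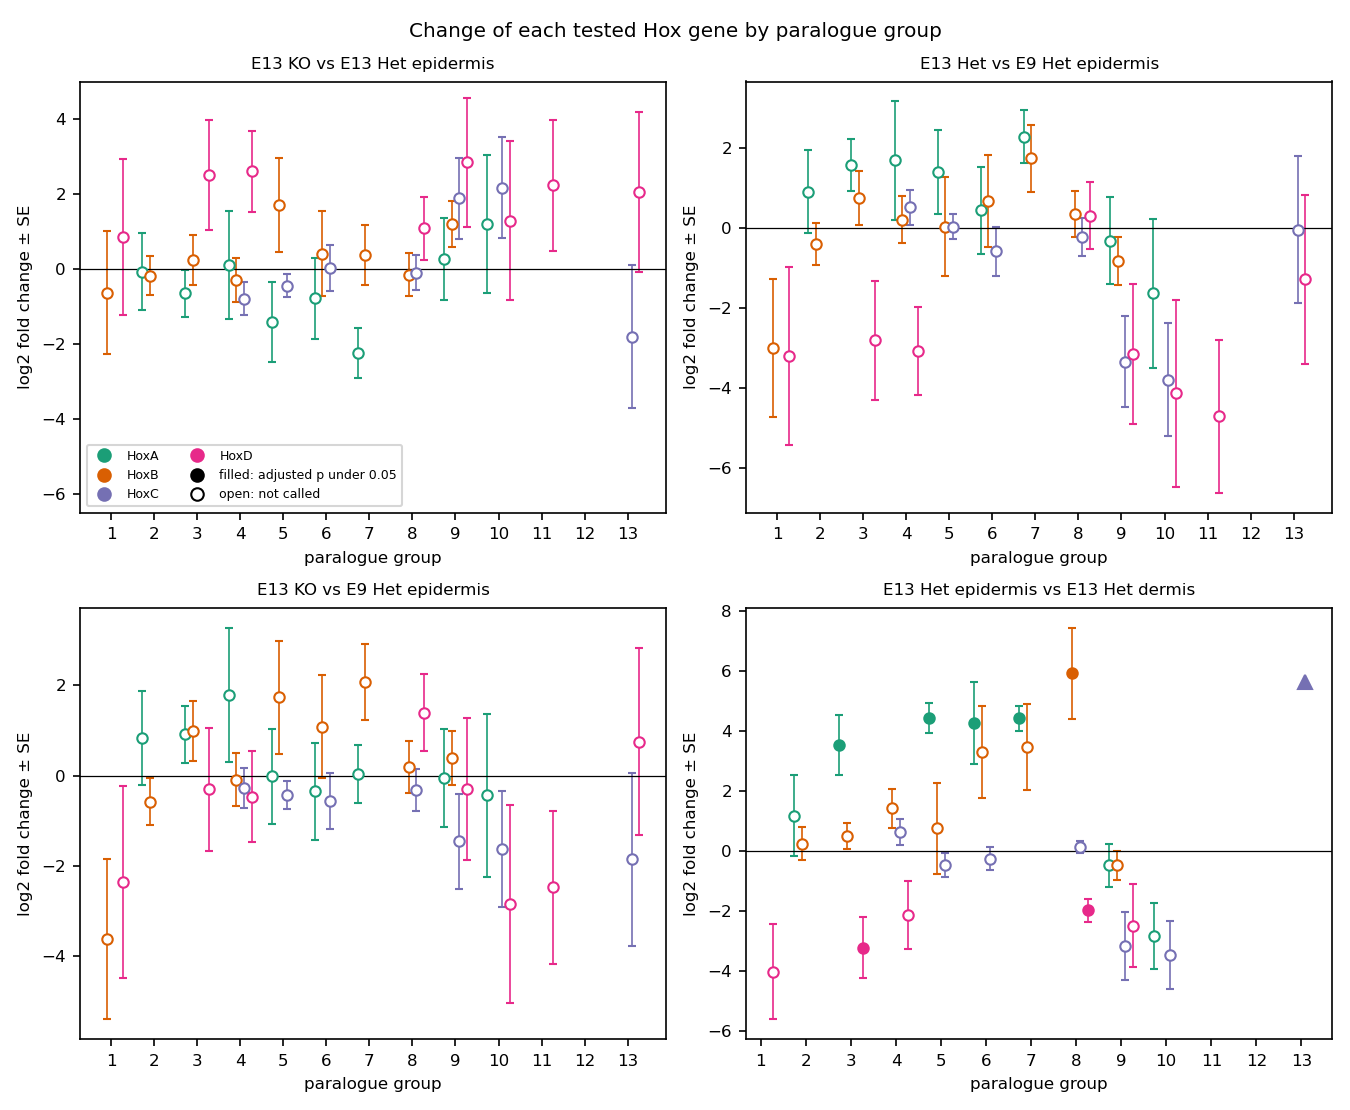
Log2 fold change ± SE (vertical axis) of each tested Hox gene but 1 by paralogue group (horizontal axis), coloured by cluster, for the 4 comparisons, with filled points where the edgeR adjusted p was under 0.05 and a triangle for a lower bound against a group with no count. HoxD points lie above 0 in KO against E13 Het epidermis and below 0 in E13 Het epidermis against dermis, and the filled points are all in the dermis panel.

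The second comparison set day 13 against day 9 in Het epidermis. Of the 35 members tested, 1 passed, Cdx2, which was lower at day 13 (edgeR, adjusted p under 0.05), where 7.29% of all genes were called, 4.77% higher and 2.53% lower. Cdx2 had 0, 0.12 and 0 CPM in E13 Het epidermis, 1 count in all, against 33.5, 28.5 and 6.19 CPM in E9 Het epidermis. The log2 fold change was -8.31 ± 1.62 (edgeR adjusted p 0.0052), and the ratio of counts was 457-fold lower, with an exact counting interval of 81.7 to 18100. The call was kept under all 11 alternatives and in 5 of 6 refits that left out a library, and was lost without E9 replicate 1 (adjusted p 0.0562). Without E9 replicate 4 the adjusted p was 0.0048.

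Cdx1 had 0, 0.12 and 0.34 CPM in E13 Het epidermis, 3 counts in all, against 10.6, 13.9 and 14.9 CPM in E9 Het epidermis. The groups lay far apart, at a ratio of 78.6-fold lower (26.5 to 384), and the edgeR adjusted p was 0.0546, while DESeq2 gave 6.39e-05 in a range of 6.39e-05 to 0.245 over the alternatives. Unlike Cdx2, Cdx1 was not lowest in E9 replicate 4, the library with few Hox counts, and without that library its log2 fold change was -6.10 (edgeR adjusted p 0.134). Cdx4 had no count in any of the 12 libraries. Cdx2 is also one of 8 endoderm and gut markers, which summed to 0.681 to 6.92 CPM in E13 Het and 19.5 to 44.4 CPM in E9 Het epidermis, Cdx2 included. The 10 somite, myoblast and cartilage markers summed to 45.4 to 103 CPM in E13 Het and 514 to 606 CPM in E9 Het epidermis (3 of 5 tested called lower). Further markers also separated the ages. The 14 dermal mesenchyme markers summed to 957 to 2214 CPM in E13 Het and 319.5 to 375 CPM in E9 Het epidermis (3 of 13 tested called higher), the 11 neural markers to 61.7 to 155 and 224 to 234 CPM (0 called) and the 6 neural crest and melanocyte markers to 4.52 to 15.3 and 29.4 to 61.5 CPM (1 called lower). Their part in the Cdx and Hox results was not tested.

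**Figure D4:**
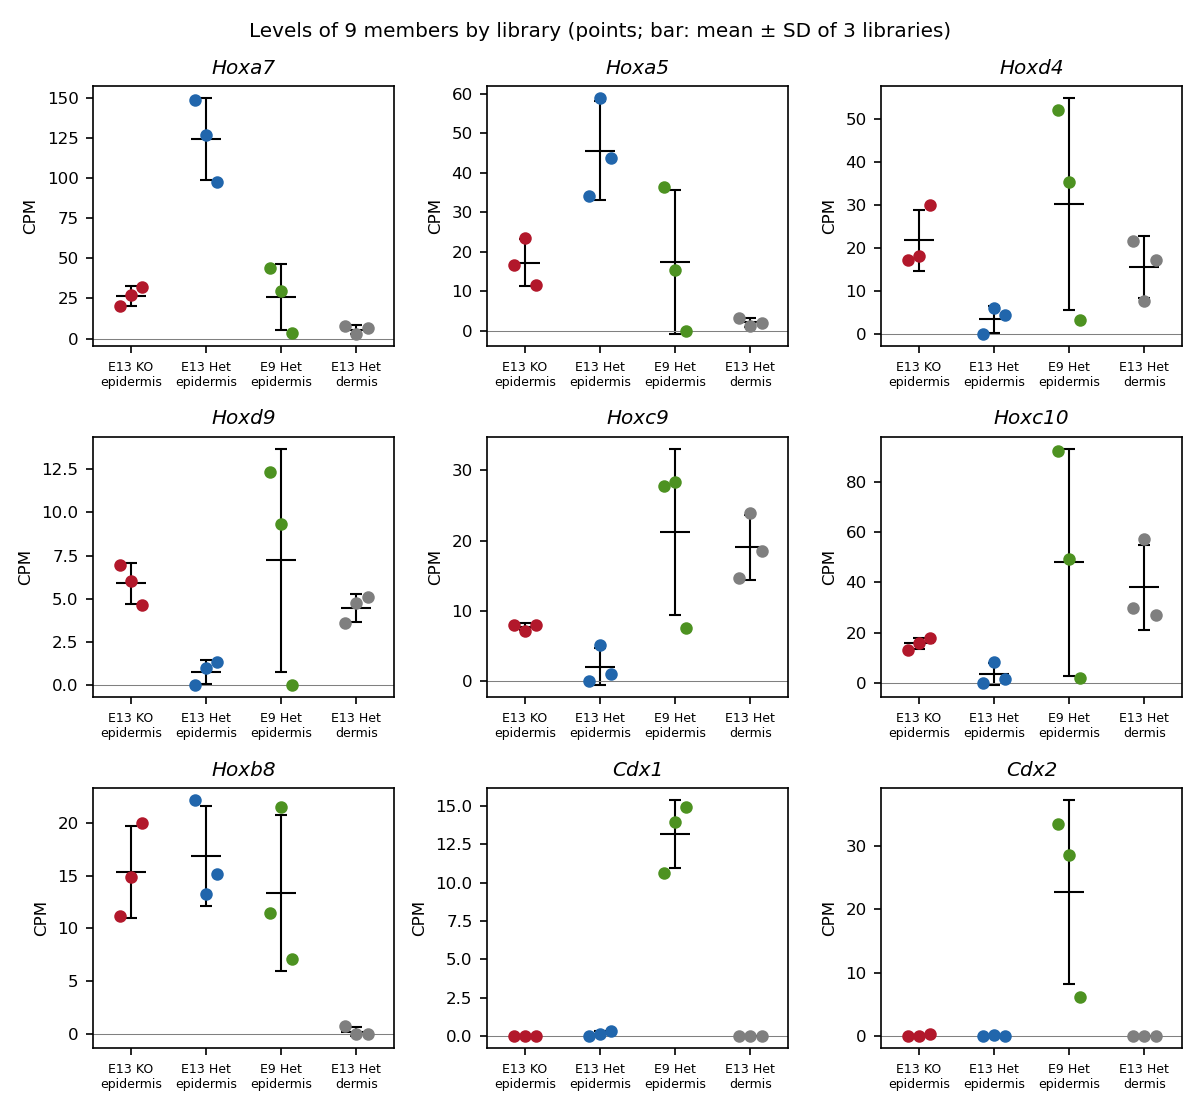
CPM of 9 members by library (points) with mean ± SD (n = 3) in KO epidermis, E13 Het epidermis, E9 Het epidermis and dermis, each panel on its own scale. Cdx1 and Cdx2 are at or near 0 outside E9, Hoxa7 and Hoxa5 are highest in E13 Het epidermis, and Hoxd4, Hoxd9, Hoxc9 and Hoxc10 have their lowest mean there.

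The libraries of E13 Het and E9 Het epidermis did not overlap for 3 members on the high side, Hoxa7, Hoxa3 and Hoxb7, and for 5 on the low side, Cdx1, Cdx2, Hoxc9, Hoxb1 and Hoxd1. Of all genes 28.9% did not overlap, 15.0% on the high and 14.0% on the low side. At an unadjusted p under 0.05 there were 8 of the 35 members, against 19.7% of all genes. Hoxa7 had the 149, 127 and 97.5 CPM given above in E13 Het epidermis, against 44.1, 29.6 and 3.44 CPM in E9 Het epidermis (log2 2.27 ± 0.66, edgeR adjusted p 0.0736). Without E9 replicate 4 its log2 fold change was 1.76 and its adjusted p 0.00616. Hoxb7, its paralogue in HoxB, had 7.01, 15.8 and 13.5 CPM in E13 Het epidermis, against 2.27, 5.46 and 3.21 CPM in E9 Het epidermis (log2 1.73 ± 0.83, edgeR adjusted p 0.273). Hoxa3 averaged 30.0 ± 7.64 CPM at day 13 and 10.1 ± 7.58 CPM at day 9 (log2 1.56 ± 0.65, edgeR adjusted p 0.189).

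Hoxb1, which gives one hindbrain segment its identity, had 0, 1.98 and 1.70 CPM in E13 Het epidermis, against 11.4, 5.28 and 13.8 CPM in E9 Het epidermis (log2 -3.01 ± 1.72, edgeR adjusted p 0.385). Its window is the one printed above with a HOX-PBX element. Hoxd1, which shapes pain-sensing neurons in mice, had 0, 0.988 and 0 CPM at day 13, against 3.40, 2.99 and 3.67 CPM at day 9. For both genes replicate 4 was the highest E9 library. Hoxc9 had 0, 5.06 and 1.02 CPM in E13 Het epidermis, against 27.8, 28.4 and 7.57 CPM in E9 Het epidermis (log2 -3.34 ± 1.13, edgeR adjusted p 0.0976), and without replicate 4 the values were -3.74 and 0.0945.

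All 10 tested genes of paralogue groups 9 to 13 had a negative log2 fold change at day 13 against day 9, with a median of -2.40 against 0 over all genes. Without E9 replicate 4 all 10 were again negative with a median of -2.98, without E9 replicate 1 there were 8 negative and 2 positive with a median of -2.24, and without E13 Het replicate 2 all 10 were negative with a median of -3.79. With voom 9 were negative and 1 positive (median -1.94). A fit of the 2 compared groups kept 8 genes, all negative (median -1.47). Without the library with the fewest genes in each compared group, 9 of 11 were negative (median -1.65). With no filter on low counts, 13 of 16 were negative and 2 positive (median -2.42). Those 2 were Hoxa13 and Hoxd12, which had no count in E9 Het epidermis. Hoxc10 had 0, 8.40 and 1.53 CPM in E13 Het epidermis, against 92.6, 49.5 and 1.83 CPM in E9 Het epidermis. Replicates 1 and 2 of E9 stood far above all other epidermal libraries and replicate 4 among the E13 Het values. Its log2 fold change was -3.80 ± 1.41 (edgeR adjusted p 0.167), and without replicate 4 it was -4.35 with an adjusted p of 0.0489. Hoxd11, a gene of the forearm and sacrum, had 0.23, 1.36 and 0.17 CPM at day 13, against 35.0, 14.3 and 0 CPM at day 9 (log2 -4.71 ± 1.91, edgeR adjusted p 0.176), and -5.28 without replicate 4 (adjusted p 0.0875). Hoxd4 had 0, 6.05 and 4.43 CPM at day 13, against 51.9, 35.2 and 3.44 CPM at day 9 (log2 -3.08 ± 1.10, edgeR adjusted p 0.135), and without replicate 4 its adjusted p was 0.0526. In groups 5 to 8, 9 of the 11 genes had positive values (median 0.34), but without E9 replicate 4 only 5 of the 11 did (median -0.14), and with voom 6 did (median 0.05). Of the 9 tested HoxA genes 7 were positive (median 0.90), and 6 without E9 replicate 4 (median 0.82).

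The third comparison, KO epidermis at day 13 against Het epidermis at day 9, mixes genotype with age and shares its libraries with the other epidermal comparisons. It called 2 of 35 members, both lower, where 7.67% of all genes were called, 4.62% higher and 3.05% lower. At an unadjusted p under 0.05 there were 3 members, against 21.0% of all genes. Cdx1 had no count in the 3 KO libraries, which put it at least 76.5-fold lower than in E9 Het epidermis (3 counts over the group, edgeR adjusted p 0.0185). Cdx2 had 0, 0 and 0.26 CPM in KO, 1 count in all, and was 445-fold lower (79.5 to 17600, edgeR adjusted p 0.00622). The Cdx1 call was kept in 1 of 6 refits without a library, that without KO replicate 3 (adjusted p 0.0266 to 0.0741 over the 6), and the Cdx2 call in 4 of 6, being lost without E9 replicate 1 (0.0647) or 2 (0.0559). Without E9 replicate 4 the adjusted p was 0.00541 for Cdx2 and 0.05 for Cdx1, which did not pass. Beside these results, dermal mesenchyme markers summed to 1779 to 2965 CPM in KO and 319.5 to 375 CPM in E9 Het epidermis (4 of 13 tested called higher). Somite, myoblast and cartilage markers summed to 19.2 to 84.9 and 514 to 606 CPM in that order (1 of 5 tested called lower). Neural crest and melanocyte markers summed to 14.4 to 26.6 and 29.4 to 61.5 CPM (0 of 3 tested called). Neural markers (144 to 281 and 224 to 234 CPM) and endoderm and gut markers (0.259 to 29.1 and 19.5 to 44.4 CPM) overlapped. The endoderm and gut sums include Cdx2 itself, at 33.5, 28.5 and 6.19 CPM in the E9 libraries, and are no separate reading of it. The part of all these markers was not tested.

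Among the Hox genes of that comparison, Hoxb7 had the smallest p, with 22.0, 20.3 and 4.66 CPM in KO epidermis, against 2.27, 5.46 and 3.21 CPM in E9 Het epidermis (log2 2.08 ± 0.84, edgeR adjusted p 0.162). The Hoxb7 libraries overlapped, since KO replicate 3 lay within the E9 range. Libraries did not overlap for 1 member on the high side, Hoxa3, and for 4 on the low side, Cdx1, Cdx2, Hoxb1 and Hoxd1, where 32.0% of all genes did not overlap, 16.7% on the high and 15.3% on the low side. Hoxb1 had 0, 1.61 and 0.78 CPM in KO, and Hoxd1 had 0, 1.88 and 0 CPM. Hoxa7 averaged 26.6 ± 6.12 CPM in KO and 25.7 ± 20.6 CPM in E9 Het epidermis (log2 0.03 ± 0.64), and Hoxd4 averaged 21.9 ± 7.09 CPM in KO and 30.2 ± 24.6 CPM in E9 Het epidermis (log2 -0.47 ± 1.01). Without E9 replicate 4 that of Hoxa7 was -0.48. Of the 10 tested genes of groups 9 to 13, 2 were positive and 8 negative with a median of -0.95, against 0.01 over all genes, and without E9 replicate 4 the median was -1.44 with 9 of 10 negative. Without E9 replicate 1 they split into 5 positive and 5 negative (median -0.30).

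The fourth comparison set epidermis against dermis in E13 Het embryos. Of the HoxA genes 5 were called higher in epidermis, of the HoxD genes 2 were called lower, and Hoxc13 and Hoxb8 were the remaining calls, both higher. Of 28 members tested, 9 passed (32.14%), 7 higher and 2 lower in epidermis, where 34.7% of all genes passed, 16.5% higher and 18.2% lower, so that the share of members called was near that of other genes. At an unadjusted p under 0.05 there were 14 members, against 44.7% of all genes. Libraries did not overlap for 10 members on the high side and 8 on the low side, where 55.9% of all genes did not overlap, 24.8% on the high and 31.2% on the low side. The median log2 fold change was 0.37 over the members tested, also with Hoxc13 at its bound, and -0.13 over all genes.

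Hoxa7 had 149, 127 and 97.5 CPM in epidermis, against 7.63, 2.59 and 6.74 CPM in dermis (log2 4.42 ± 0.41, edgeR adjusted p 0.000158). Hoxa5 had 34.1, 59.0 and 43.8 CPM in epidermis, against 3.24, 1.12 and 1.86 CPM in dermis (log2 4.44 ± 0.50, edgeR adjusted p 0.000397). Both genes were separated from dermis by more than the spread of either group. Hoxa3 had 37.8, 29.8 and 22.5 CPM in epidermis, against 4.57, 3.02 and 0.14 CPM in dermis (log2 3.54 ± 0.99, edgeR adjusted p 0.0263). Hoxa6, a gene of the trunk, had 17.9, 10.5 and 14.3 CPM in epidermis, against 1.27, 0.948 and 0 CPM in dermis (log2 4.26 ± 1.36, edgeR adjusted p 0.0401). Both of those calls were lost in some refits without 1 library, Hoxa3 without E13 Het replicate 1 or 2 or dermis replicate 2 and Hoxa6 without E13 Het replicate 2 or 3 or dermis replicate 1 or 2.

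Hoxb8, a gene of the trunk and of myeloid progenitors, had 22.2, 13.2 and 15.2 CPM in epidermis, against 0.81, 0 and 0 CPM in dermis (log2 5.92 ± 1.53, edgeR adjusted p 0.0185). Hoxc13 had 3.39, 2.59 and 2.04 CPM in epidermis and no count in dermis, which put it at least 49.4-fold higher (3 counts over the group, edgeR adjusted p 0.0236). Its epidermal libraries held 48 counts in all, and the call was kept in 1 of 6 refits without a library, that without E13 Het replicate 1 (adjusted p 0.0355 to 0.0744 over the 6). Hoxb6 and Hoxb7 were higher in every epidermal library than in any dermal one without passing in the main fit, at log2 3.29 ± 1.53 and 3.48 ± 1.43. Of 10 alternatives, 3 called Hoxb6 and 5 called Hoxb7. In the middle of HoxC the tissues overlapped, with Hoxc8 at 81.3 ± 18.1 CPM in epidermis and 72.6 ± 7.64 CPM in dermis (log2 0.13 ± 0.21).

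The HoxD genes that could be tested lay on the other side, with all 5 below dermis in every library, but the sparser HoxD genes did not follow them. Hoxd11 had 13 counts in epidermis and 3 in dermis (13.4-fold higher per total, exact counting interval 3.68 to 73.2), while Hoxd12 with 13 counts and Hoxd13 with 20 counts in epidermis had none in dermis and were at least 13.4-fold and 20.6-fold higher (3 counts over the group). E13 Het replicate 2 held 11, 13 and 19 of these epidermal counts of Hoxd11, Hoxd12 and Hoxd13. Hoxd10 averaged 0.70 ± 1.21 CPM in epidermis and 0.608 ± 0.406 CPM in dermis. With no filter on low counts, the 9 HoxD genes split into 4 positive and 5 negative. Hoxd8 had 15.4, 7.91 and 6.81 CPM in epidermis, against 44.9, 36.5 and 34.7 CPM in dermis (log2 -1.98 ± 0.39, edgeR adjusted p 0.00565). Hoxd3 had 1.58, 3.09 and 0.17 CPM in epidermis, against 25.8, 6.73 and 13.9 CPM in dermis (log2 -3.23 ± 1.02, edgeR adjusted p 0.0396), a call kept in 2 of 6 refits without a library, those without E13 Het replicate 1 or 2 (adjusted p 0.0384 to 0.205 over the 6). Hoxd1, Hoxd4 and Hoxd9 did not pass (edgeR adjusted p 0.0823 to 0.201). Of the 9 alternatives that kept Hoxd1, 2 called it. Outside HoxD, Hoxa10, Hoxc9 and Hoxc10 were below dermis in every library without passing in the main fit. Of 10 alternatives, 2 called Hoxa10, 5 called Hoxc9 and 6 called Hoxc10. Hoxc10 had 0, 8.40 and 1.53 CPM in epidermis against 29.7, 57.5 and 27.0 CPM in dermis (log2 -3.47 ± 1.14, edgeR adjusted p 0.0521). With raw library totals in place of TMM, the log2 fold changes of Hoxa9, Hoxb9 and Hoxc6 changed sign, and the median over all genes moved to 0.30. That scaling split all calls into 3156 higher and 1438 lower, against 2140 and 2364 with TMM, and called Hoxb7 but not Hoxd3.

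The other members did not pass in any main edgeR comparison in which they were tested. Hoxb6 and Hoxa10 were called against dermis only under the alternatives given above. Hoxa2, Hoxa4, Hoxa9, Hoxa10, Hoxb2 to Hoxb6, Hoxc5 and Hoxc6 had log2 fold changes of -0.45 to 1.71 in KO against E13 Het epidermis, -1.64 to 1.68 in E13 Het against E9 Het epidermis and -0.58 to 1.79 in KO against E9 Het epidermis. Against dermis the 10 of them that were tested had -2.84 (Hoxa10) to 3.29 (Hoxb6). Hoxa4, which helps to pattern the neck, was left out of that test by the low-count filter, with 0, 22.7 and 8.51 CPM in E13 Het epidermis, against 0, 0 and 0.251 CPM in dermis. It was called higher in epidermis in all 4 of the other filters and library choices that kept it (log2 6.53 to 10.39, edgeR adjusted p 0.00166 to 0.0384). Among refits without 1 library it was called without E13 Het replicate 1 and did not pass without dermis replicate 1, 2 or 3 (edgeR adjusted p 0.0763 to 0.124). The top value of the first comparison was that of Hoxb5, a gene of gut nerves and neck, which had 2.43, 5.24 and 25.9 CPM in KO and 2.04, 5.31 and 2.89 CPM in E13 Het epidermis, with KO replicate 3 the one library far from the rest. In epidermis Hoxc5 was among the steadiest members, at 37.2 ± 8.92 CPM in KO, 50.5 ± 12.9 CPM in E13 Het and 49.9 ± 10.3 CPM in E9 Het epidermis. In dermis it spread widely, at 109.9, 34.1 and 62.8 CPM (69.0 ± 38.3 CPM). Hoxb2, a hindbrain gene, averaged 15.8, 17.9, 23.7 and 15.1 CPM in the same order, with SDs of 6.66, 8.07, 5.35 and 6.29 CPM.

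The 6 members too low for any test were counted in few libraries. Hoxa13, a gene of digits and genital tubercle, had 26 counts in KO replicate 2, 9 in E13 Het replicate 2 and none elsewhere. Hoxb13, a tail-end gene, had 14 counts in KO replicate 2 and 4 in dermis replicate 1. Hoxd12, a limb gene, had 6 and 27 counts in KO replicates 1 and 2 and 13 in E13 Het replicate 2. These replicates 2 were the libraries of their groups with the most counts and the most genes detected. The part of depth in these member counts was not tested. Hoxa11, a forearm and kidney gene, had 10 counts in KO, 2 in E13 Het and 23 in E9 Het epidermis, which put E13 Het 12.4-fold below E9 Het epidermis (exact counting interval 3.06 to 108). Hoxc11 had 3 counts in E13 Het and 31 in E9 Het epidermis, 29 of them in replicate 1, and Hoxc12 had 1 count in E13 Het replicate 2 and 12 in E9 Het replicate 2.

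Partners and regulators of Hox genes were read from lists. The calls in each list stand beside shares of 2.20, 7.29, 7.67 and 34.7% of all genes called in the 4 comparisons, in the order described. Of 9 TALE genes, which encode the PBX, MEIS and PKNOX cofactors that bind DNA with Hox proteins, 1 was called higher and 0 lower in KO against E13 Het epidermis. It was Meis2, with 447, 451 and 453 CPM in KO and 223, 294 and 342 CPM in Het (log2 0.64 ± 0.15, edgeR adjusted p 0.0376). In E13 Het against E9 Het epidermis 1 of 9 was called, Meis1, which was lower, with 27.1, 60.6 and 74.9 CPM at day 13 and 284, 269 and 283 CPM at day 9 (log2 -2.35 ± 0.28, edgeR adjusted p 0.000133). In KO against E9 Het epidermis Meis1 was again the 1 call. Against dermis, 2 of 8 tested were called higher, Meis2 among them, and Meis1 was called lower. The TALE medians were 0.30, -0.33, 0.13 and 0.78 in the 4 comparisons in the order described.

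Of 15 tested genes of retinoic acid signalling, the pathway that turns on low-numbered Hox genes, 1 was higher and 2 were lower in KO against E13 Het epidermis. Crabp2, which carries retinoic acid to the nucleus, had 68.2, 62.3 and 38.0 CPM in KO and 10.6, 16.4 and 7.49 CPM in Het (log2 2.27 ± 0.33, edgeR adjusted p 0.00175). The receptor gene Rarg averaged 56.4 ± 15.3 CPM in KO and 146 ± 4.26 CPM in Het (log2 -1.38 ± 0.25, edgeR adjusted p 0.00755), and its partner Rxra was also lower (log2 -1.15 ± 0.22, edgeR adjusted p 0.0113). In E13 Het against E9 Het epidermis 2 were higher, Rarg and Rxra, and 5 were lower, Aldh1a3, Crabp1, Crabp2 and Cyp26b1 among them. The list had 0 higher and 3 lower in KO against E9 Het epidermis, where 7.67% of all genes were called. It had 2 higher and 6 lower against dermis, where 34.7% of all genes were called. Its medians were 0.44, -2.07, -0.44 and -1.06.

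Of 5 tested posterior signals and axial progenitor genes, Wnt3a was the 1 gene called in KO against E13 Het epidermis. It encodes a Wnt ligand of the tail bud and had 0.758, 0.134 and 0 CPM in KO, against 19.2, 29.2 and 26.7 CPM in E13 Het epidermis (log2 -6.22 ± 1.30, edgeR adjusted p 0.0276). No E9 library counted it. In E13 Het against E9 Het epidermis Wnt3a was called higher and Fgf8 and Gdf11 lower, in KO against E9 Het epidermis Fgf8 was lower, and against dermis Wnt3a was higher and Wnt5a lower. T, which encodes the tail-bud factor brachyury, had at most 1.94 CPM in any library.

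Chromatin regulators that hold Hox clusters silent or active were mostly uncalled. Among 16 Polycomb genes 0 passed in KO against E13 Het epidermis (2 at an unadjusted p under 0.05), 1 was higher in E13 Het against E9 Het epidermis, 2 were higher, Phc3 among them, and Cbx2 was lower in KO against E9 Het epidermis, and Cbx2, Jarid2 and Suz12 were higher and Rnf2 lower against dermis. Of 9 trithorax genes and antagonists, none passed in the 3 epidermal comparisons (0, 2 and 1 at an unadjusted p under 0.05, edgeR) and Rbbp5 was higher against dermis. Kmt2a and Kmt2b were on the same list but were not counted under those symbols and were not read. Among 8 tested genes flanking the clusters none passed in KO against E13 Het epidermis, also at an unadjusted p under 0.05. Skap2, which lies beside HoxA, averaged 106.5 ± 14.0 CPM in E13 Het and 29.8 ± 17.2 CPM in E9 Het epidermis (log2 1.83 ± 0.39, edgeR adjusted p 0.0116), and 5.45 ± 1.61 CPM in dermis. It was the 1 flanking gene called in both comparisons against day 9, and against dermis Skap2 and Cbx5 were higher and Atp5g1 and Mtx2 lower. Of 8 non-coding genes inside the clusters 1 could be tested in epidermis and it was not called, and none of 5 related homeobox genes (Gbx2, Pdx1, Gsx1, Gsx2 and Mnx1) could be tested.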

How the data were processed

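Each deposited file held whole-number counts of reads per gene symbol for 1 library, with 5 summary lines that were left out of totals and tests (48.8 to 63.8% of entries in epidermal and 20.2 to 21.6% in dermal files). TopHat2, Bowtie2 and HTSeq on mm10 are listed in the submitters' processing notes. Whether reads were counted by strand is not stated in the sources used here. Gene positions come from RefSeq GRCm38.p6. Where gene models overlap or paralogues are near-identical, reads may be split or lost.

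The members, gene lists and tests were chosen with earlier results of these data known. The named members were those called in any comparison, the 3 with the smallest p in each, and the Cdx genes. Further members were named after their values were seen. The clause on the highest level per length was not applied, as no transcript lengths were used.

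The 9 epidermal libraries were fitted together (6 residual degrees of freedom) and the 6 E13 Het libraries of epidermis and dermis apart (4), with edgeR 4.0.16 in R 4.3.3 (filterByExpr, TMM, robust quasi-likelihood F test). Genes with a Benjamini-Hochberg adjusted p under 0.05 were called. Of the 42 members, 35 passed the low-count filter in the first fit and 28 in the second. DESeq2 1.42.0 and limma 3.58.1 were alternatives. SE is the absolute log2 fold change divided by the root of F. Intervals and bounds cover counting error only, since PCR copies are not independent molecules. Replicates differed by more than sampling noise (chi-square per degree of freedom 15.4 to 227). The tests were checked on simulated counts. ATAC and ChIP samples were not analysed here. The values of 1 member and of 3 listed genes are not reported here, though sums and counts include them.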

Additional observations from a re-analysis of the deposited data

How the results depend on the processing

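Numbers of members called under other scalings (RLE, raw totals) stayed within 1.5 times. With TMM scaling and edgeR, KO against E13 Het epidermis had 0 calls, and DESeq2, voom, a fit of the 2 compared groups and the replicate block each had 1, Hoxa7. For E13 Het against E9 Het epidermis (1 call) DESeq2 gave 5, voom 4, no filter 2, a fit of the 2 compared groups 2 and the replicate block 2. Leaving out the library with the fewest genes in each compared group, E13 Het replicate 1 and E9 Het replicate 4, gave 5. For KO against E9 Het epidermis (2 calls) these were 4 with DESeq2, 5 with voom, 1 with a mean of at least 5 CPM, 0 with the replicate block (adjusted p 0.106 for Cdx1 and 0.0534 for Cdx2) and 1 without the libraries with the fewest genes. For E13 Het epidermis against dermis (9 calls) DESeq2 gave 15, voom 14 and leaving out the libraries with the fewest genes 14, while the replicate block gave 7. Leaving out 1 library gave 0 for KO against E13 Het, 0 to 3 for E13 Het against E9 Het, 0 to 2 for KO against E9 Het and 5 to 13 against dermis. Without E13 Het replicate 2 there were 2 calls and without E9 Het replicate 4 there were 3 for E13 Het against E9 Het, and without KO replicate 1 or 2 or E9 Het replicate 4 there was 1 for KO against E9 Het. Without E9 Het replicate 1 both comparisons against day 9 had 0 calls, without E9 Het replicate 2 KO against E9 Het epidermis had 0, and without dermis replicate 2 there were 5 calls against dermis.

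Of 703 recomputed values of single members, 619 kept direction and side of the threshold, 33 lost the call, 51 gained it and 0 reversed. Over all tested members, 121 of 2207 recomputed log2 values had another sign, 0 of them called. Counts over all genes were 287, 952 and 1001 in the 3 epidermal comparisons, against 824, 1997 and 2172 with DESeq2, 635, 1692 and 2563 with voom, and 576 and 540 with the replicate block in the comparisons against day 9. Without KO replicate 1 they were 182 and 592 for KO against E13 Het and against E9 Het, without E9 Het replicate 1 597 and 606 and without E9 Het replicate 2 569 and 557 for E13 Het and KO against E9 Het, and without dermis replicate 3 there were 2934 against dermis in place of 4504. Deviations from group means correlated at -0.023 to 0.2 between same-numbered libraries, the highest for replicates 2 of KO and E13 Het epidermis. Between differently numbered libraries the correlations ran from -0.105 to 0.079. The labels do not state whether replicate numbers mark shared animals or days, so pairing was left undecided. With the replicate block, E13 Het against E9 Het epidermis had 3 of 11 genes of groups 5 to 8 positive (median -0.15), 5 of 9 of HoxA (median 0.20) and 1 of 10 of groups 9 to 13 (median -2.96). Levels per kilobase were not run, as no transcript lengths were used. At 3 libraries a group and the depths given, genes with a few counts per library limit the folds, and the causes of the changed calls were not tested.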
